A study of Mus musculus with 12 samples.

Results

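A set of 10 genes of glucose supply and of the signal for new vessels is described here, from cell entry of glucose to export of lactate: the glucose carriers Slc2a1 and Slc2a3, the hexokinases Hk1 and Hk2, the regulatory enzyme Pfkfb3, the phosphofructokinase Pfkp, the phosphoglycerate kinase Pgk1, the lactate dehydrogenase Ldha, the lactate exporter Slc16a3 and the vascular growth factor Vegfa. They were taken by symbol, and all 10 of 10 symbols were found among the 21967 genes of the deposited table. The choice of genes was made with earlier results of these data known. All 10 were among the 13048 tested genes, those that averaged 1 CPM or more (counts per 1000000 counted reads). The RNA came from mouse organotypic brain slices, cut at postnatal day 6 and cultured for 8 days.

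The 4 groups held 3 libraries each, and every slice carried 2 floxed Mef2c alleles (Mef2c fl/fl). One genotype had no Cre and the other also carried CaMKiiα Cre +/-, a transgene whose promoter is active in forebrain excitatory neurons, so glia and vessel cells are not its targets. Slices of both genotypes were given 100 µM picrotoxin together with 100 µM 4-aminopyridine, or the vehicle alone, which was 1% DMSO with 1% water. The first drug is a blocker of GABA-A receptors and the second of potassium channels, and the pair drives strong firing. Whether replicate libraries stem from different animals is not in the labels. Each group held libraries low and libraries high in Y-linked genes (values near the end of the results), so its 3 libraries are not all from the same animal. Whether each has its own animal is not known, so the p-values rest on the spread among libraries, which may be technical in part.

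The library totals ran from 82235674 to 140390406 counted reads. No member rested on fewer than 2159 reads in a library, so counting error was small against the spread between libraries. The label of a Mef2c knockout was not borne out by the level of Mef2c, counted over the whole gene. Its mean was 1002 ± 123 CPM without Cre but 2267 ± 161 CPM with Cre in vehicle. In treated slices it was 1080 ± 130 against 2156 ± 188 CPM (SD, n = 3 in each group). A count over the whole gene cannot show whether the floxed part was removed. The genotype names below are therefore those of the labels, and every direction drawn between genotypes depends on them. The treatment acted in both genotypes: Fos, an activity-induced transcription factor, went from 36.1 ± 19.0 to 1609 ± 49.5 CPM without Cre and from 24.1 ± 3.57 to 1076 ± 102 CPM in Cre-labelled slices (SD, n = 3 each). The marker genes of astrocytes, neurons, microglia, oligodendrocytes and endothelium were detected in every group, as brain tissue would have.

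As background, glucose reaches the brain mainly through GLUT1, the product of Slc2a1, which is abundant in the endothelium of brain capillaries and present in astrocytes, while neurons mainly use GLUT3, the product of Slc2a3. Hexokinases trap glucose as its phosphate, and phosphofructokinase commits it to glycolysis under the control of an allosteric activator that the kinase PFKFB3 makes. Lactate dehydrogenase turns pyruvate into lactate, which monocarboxylate carriers move between cells. Several of these genes and Vegfa are textbook targets of the hypoxia-inducible factors, which bind DNA at a short core, ACGTG.

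The stretches before the start sites of 4 members are shown because they set a member that rose with treatment (Slc2a1) and one close to the threshold (Hk2) beside members that stayed near their vehicle level (Pgk1, Ldha). The sequences are RefSeq's, of build GRCm38, each read 5′ to 3′ on the strand of its gene, with the letters ACGTG or their reverse complement CACGT in capitals. The windows are chr4:119108495-119108713 (plus strand) for Slc2a1, chr6:82774455-82774704 (minus strand) for Hk2, chrX:106186850-106187099 (plus strand) for Pgk1 and chr7:46845554-46845803 (plus strand) for Ldha. The window of Slc2a1 was ended after its ACGTG, at 219 bases, and the others are 250 bases. The annotated Slc2a1 gene begins at 119108711, so the last 3 letters of that ACGTG lie in its first exon. These 4 were picked after their values and matches had been seen.

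Slc2a1: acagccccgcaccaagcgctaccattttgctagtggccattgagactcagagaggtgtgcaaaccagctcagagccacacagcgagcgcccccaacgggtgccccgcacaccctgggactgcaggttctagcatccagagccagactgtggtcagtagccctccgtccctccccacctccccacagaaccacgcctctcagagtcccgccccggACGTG

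Hk2: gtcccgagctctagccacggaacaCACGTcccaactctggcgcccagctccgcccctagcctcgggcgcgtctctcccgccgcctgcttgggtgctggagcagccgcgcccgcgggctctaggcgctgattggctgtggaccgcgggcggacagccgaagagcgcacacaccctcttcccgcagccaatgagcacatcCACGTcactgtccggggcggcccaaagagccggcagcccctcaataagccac

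Pgk1: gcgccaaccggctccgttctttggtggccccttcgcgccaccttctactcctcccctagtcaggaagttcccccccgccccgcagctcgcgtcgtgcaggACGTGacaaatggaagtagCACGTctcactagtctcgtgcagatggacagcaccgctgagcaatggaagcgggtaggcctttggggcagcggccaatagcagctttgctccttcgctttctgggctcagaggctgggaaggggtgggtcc

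Ldha: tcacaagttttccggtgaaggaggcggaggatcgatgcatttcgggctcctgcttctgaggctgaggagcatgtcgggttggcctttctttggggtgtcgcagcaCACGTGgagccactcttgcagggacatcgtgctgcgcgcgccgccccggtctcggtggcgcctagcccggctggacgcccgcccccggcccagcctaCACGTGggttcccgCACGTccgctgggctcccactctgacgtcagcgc

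The core was found once in the window of Slc2a1, 2 times before Hk2 and 2 times before Pgk1. Before Ldha it was found 5 times when both strands are counted, since the palindrome CACGTG holds it on each strand. Of the 9 members with a RefSeq entry, 7 held ACGTG on either strand in at least 1 of their windows of 250 bases, and of the 13 windows of these 9 genes 8 held it. The core occurred in 16.57% of all 32841 windows of that length. The windows follow RefSeq starts, so some lie inside the annotated gene, such as those of Ldha. For Vegfa the only match lay in such a window, with 218 of its 250 bases exonic. The first window of Pfkfb3 held 148 exonic bases. The GC share of the 13 member windows ran from 49.6% to 73.6%, and the windows of all genes were not matched for it. A full cAMP response element (TGACGTCA) was found in 1 member, Ldha, and in 1.547% of all windows, and an AP-1 site (TGANTCA) in 0 of 13 windows and in 6.751% of all windows. The E-box CACGTG, which contains the core, was found in 2 members and in 6.023% of all windows. A match is a description of the letters only.

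Treatment raised both glucose carriers and Pfkfb3 in each genotype, while Hk1, Pfkp, Pgk1, Ldha and Slc16a3 did not pass the test in either. In limma, with adjustment over all tested genes, 3 of 10 members were higher and 0 lower without Cre, where 3.24% of all tested genes were higher and 9.34% lower. In Cre-labelled slices the same 3 members were higher and 0 lower, where 3.79% of all tested genes were higher and 10.3% lower. The median log2 difference of the 10 members was 0.18 without Cre and 0.34 in Cre-labelled slices, against -0.06 and -0.03 over all tested genes. Because the members were chosen with earlier results of these data known, these shares and medians describe the set and do not test it. In these bulk samples fewer cells of a type and less RNA per cell cannot be told apart.

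**Figure D1:**
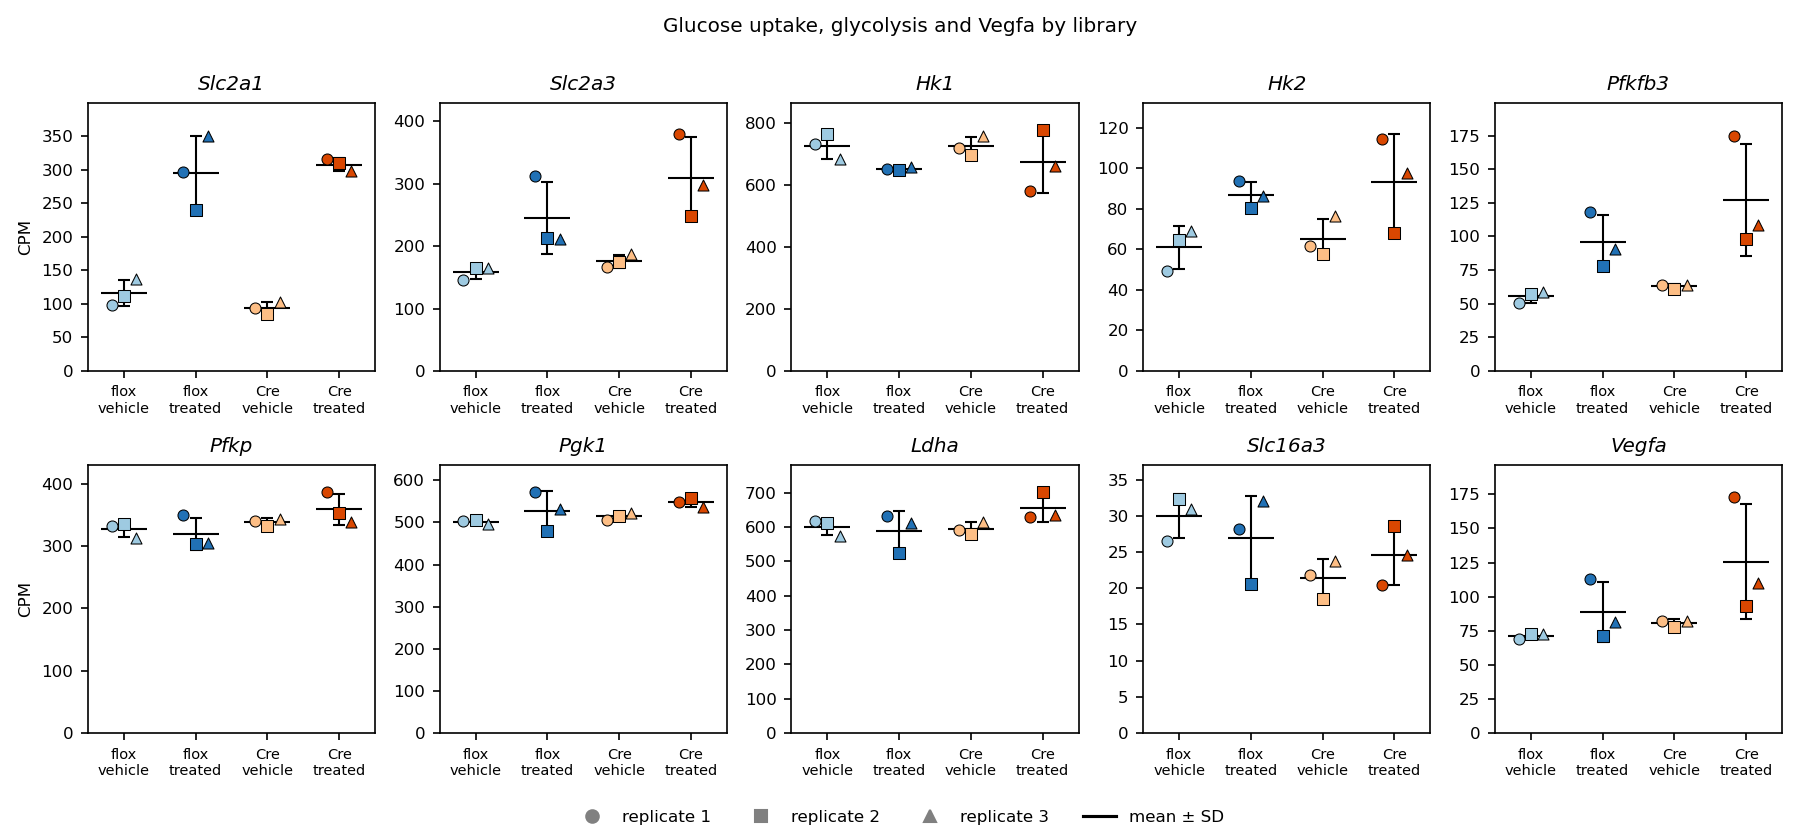
CPM (vertical axes, linear and starting at 0) of each of the 10 genes in the 12 libraries by group, where flox stands for slices without Cre and Cre for Cre-labelled slices; symbols are libraries, and lines with bars are the mean ± SD of 3 libraries. The treated libraries of Slc2a1 sit between 239.9 and 349.7 CPM, all above the vehicle libraries, while Hk1, Pfkp, Pgk1 and Ldha stay close to their vehicle levels.

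Slc2a1 (chromosome 4, 119108711 to 119137983, plus strand of GRCm38) had the largest rise of the 10 members in both genotypes. Its vehicle libraries without Cre held 98.7, 112 and 137 CPM and the treated ones 296, 239.9 and 349.7 CPM. With Cre, the vehicle libraries held 93.5, 84.9 and 103 CPM and the treated ones 316, 309 and 298 CPM. Every treated library was above every vehicle library, and the treated libraries labelled Cre were the tighter set. The mean of 3 libraries without Cre was 116 ± 19.6 CPM (SD) before and 295 ± 54.9 CPM (SD) with treatment, a log2 difference of 1.34 (SE 0.14, 95% interval 1.04 to 1.63, limma adjusted p = 3.15e-05). In Cre-labelled slices the means were 93.6 ± 8.83 and 308 ± 9.16 CPM (SD, n = 3 per group), with a log2 difference of 1.71 (SE 0.14, 95% interval 1.42 to 2.00, limma adjusted p = 3.57e-06). Among the 13048 tested genes, sorted from the largest rise down, Slc2a1 held place 99 without Cre and place 71 in Cre-labelled slices. Both calls held in all 21 alternatives.

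Markers of vessel and other cells were measured beside these changes. The summed level of 12 endothelial markers, none of them at 0, ranged from 78.6 to 98.4 CPM in vehicle and from 63.2 to 81.8 CPM in treated slices without Cre. In Cre-labelled slices it ranged from 62.8 to 77.0 CPM in vehicle and from 71.0 to 87.0 CPM after treatment. The median log2 difference of the 9 tested ones was -0.30 without Cre and 0.12 in Cre-labelled slices. The 10 astrocyte markers, none at 0, summed to between 17750 and 19950 CPM in vehicle and between 16400 and 17570 CPM after treatment without Cre, and to between 15550 and 17000 and between 14510 and 16080 CPM in Cre-labelled slices. None of the 9 tested endothelial markers passed for treatment in either genotype, and of 10 tested astrocyte markers 1 passed, Sox9, which fell by 0.39 on the log2 scale in Cre-labelled slices (limma adjusted p = 0.0306). Of 8 mural and fibroblast markers Pdgfrb, a pericyte receptor, fell by 0.60 without Cre and by 0.66 in Cre-labelled slices (limma adjusted p = 0.000938 and 0.000486). Of 8 microglial markers Cx3cr1 fell by 0.66 and by 0.51 (limma adjusted p = 0.00282 and 0.0126), and Csf1r by 0.39 without Cre (limma adjusted p = 0.0411). The 9 microglial markers in the table, none at 0, summed to between 286 and 356 CPM in vehicle and between 221 and 251 CPM after treatment without Cre, and to between 211 and 278 and between 181 and 229.5 CPM in Cre-labelled slices. The 9 mural and fibroblast markers, none at 0, summed to between 142 and 264 and between 126 and 176 CPM without Cre, and to between 122 and 156 and between 121 and 149 CPM in Cre-labelled slices. Without Cre 1 of 7 oligodendrocyte markers, Cspg4, fell by 0.44 (limma adjusted p = 0.0336), and of 8 markers of excitatory neurons Neurod6 rose by 0.79 and Tbr1 by 0.72 (limma adjusted p = 0.00275 and 0.0277). No oligodendrocyte or excitatory marker passed in Cre-labelled slices, and no inhibitory neuron or choroid plexus marker in either genotype. Of all tested genes 3.24% were higher and 9.34% lower without Cre, and 3.79% and 10.3% in Cre-labelled slices. In lists this short, counts of 0 or 1 lower are near these shares. The part of these markers in the members' changes was not tested.

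Slc2a3 (chromosome 6, 122727809 to 122801640, minus strand) rose less. It gave 146, 165 and 165 CPM in the vehicle libraries without Cre and 312, 213 and 211 CPM in the treated ones. The libraries labelled Cre gave 166, 174 and 187 CPM under vehicle and 379, 249 and 298 CPM under treatment. The groups did not overlap in either genotype, and replicate 1 was the highest treated library in both. The log2 difference was 0.60 without Cre (SE 0.16, 95% interval 0.26 to 0.95, limma adjusted p = 0.0249), from a mean of 159 ± 11.1 to 245 ± 57.5 CPM (SD, n = 3 each). It was 0.79 in Cre-labelled slices (SE 0.16, 95% interval 0.45 to 1.13, limma adjusted p = 0.00463), with means of 176 ± 10.6 and 309 ± 65.9 CPM (SD, n = 3 per group). The call without Cre was the less secure. Dropping any flox vehicle library or flox treated replicate 1 ended it (limma adjusted p from 0.0567 to 0.103), as did a replicate block within genotype (limma adjusted p = 0.0509) and testing without the filter on low genes (limma adjusted p = 0.0573), whereas the call in Cre-labelled slices held in all 21 alternatives.

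The hexokinases did not share one pattern. Hk2 (chromosome 6, 82725025 to 82774454, minus strand), the inducible hexokinase, gave 49.2, 64.7 and 68.9 CPM in the vehicle libraries without Cre and 93.6, 80.5 and 86.5 CPM in the treated ones. Under the Cre label the readings were 61.6, 57.9 and 76.2 CPM (vehicle) and 114, 68.0 and 97.7 CPM (treated). The groups were apart without Cre and overlapped in Cre-labelled slices, through treated replicate 2. The log2 differences of 0.52 (SE 0.18, 95% interval 0.14 to 0.90, limma adjusted p = 0.0764) and 0.49 (SE 0.18, 95% interval 0.11 to 0.87, limma adjusted p = 0.0897) did not pass. On the recovered reads Hk2 passed in both genotypes, with an edgeR adjusted p of 0.0497 and 0.0459 and a DESeq2 adjusted p of 0.00735 and 0.0103. Without Cre it also passed in limma with median-ratio scaling (adjusted p = 0.0414). Leaving out Cre treated replicate 2 alone gave a limma adjusted p of 0.0198 without Cre and 0.00752 in Cre-labelled slices, and leaving out Cre treated replicate 1 gave 0.0378 without Cre.

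Hk1 (chromosome 10, 62268855 to 62379908, minus strand), the constitutive hexokinase of brain, gave 732, 764 and 682 CPM in the vehicle libraries without Cre and 650.4, 647 and 657 CPM in the treated ones. With Cre, the vehicle libraries held 721, 696 and 758 CPM and the treated ones 580.4, 776 and 661 CPM. All treated libraries without Cre were below the vehicle libraries, and the groups labelled Cre overlapped. The log2 differences were -0.16 (95% interval -0.35 to 0.04, limma adjusted p = 0.291) and -0.12 (95% interval -0.31 to 0.08, limma adjusted p = 0.473), so neither passed.

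Pfkfb3 (chromosome 2, 11471433 to 11554077, minus strand), which makes the activator of phosphofructokinase, gave 50.1, 57.4 and 58.6 CPM in the vehicle libraries without Cre and 118, 78.0 and 90.9 CPM in the treated ones. The libraries labelled Cre gave 63.8, 60.6 and 64.1 CPM under vehicle and 175, 97.9 and 109 CPM under treatment. Vehicle libraries lay close together, treated libraries were all higher, and treated replicate 1 was again the highest in both genotypes. The mean rose from 55.4 ± 4.57 to 95.7 ± 20.5 CPM without Cre (SD, n = 3 per group; log2 difference 0.76, SE 0.19, 95% interval 0.35 to 1.17, limma adjusted p = 0.0181). In Cre-labelled slices it rose from 62.8 ± 1.97 to 127 ± 41.8 CPM (SD, n = 3 each; log2 difference 0.96, SE 0.19, 95% interval 0.55 to 1.37, limma adjusted p = 0.00398). The call without Cre was lost without flox vehicle replicate 1 (limma adjusted p = 0.0783) or flox treated replicate 1 (limma adjusted p = 0.064). In Cre-labelled slices it held in all 21 alternatives.

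Pfkp (chromosome 13, 6579768 to 6648777, minus strand), the platelet-type phosphofructokinase that the brain also expresses, stayed near its vehicle level. Its vehicle libraries without Cre held 332, 336 and 313 CPM and the treated ones 349.5, 303 and 305 CPM. Under the Cre label the readings were 341, 332 and 343 CPM (vehicle) and 386, 353 and 338 CPM (treated). The groups overlapped in both genotypes. The log2 differences were -0.04 (95% interval -0.19 to 0.11, limma adjusted p = 0.763) and 0.08 (95% interval -0.07 to 0.23, limma adjusted p = 0.525), and the first of these turned positive with median-ratio scaling, edgeR and DESeq2.

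The enzymes of the later steps, Pgk1 and Ldha, were the most abundant members per length and moved little. Pgk1 (chromosome X, 106187100 to 106203699, plus strand), which makes ATP from glycolysis, gave 503, 505 and 497 CPM in the vehicle libraries without Cre and 572, 479 and 531 CPM in the treated ones. With Cre, the vehicle libraries held 505, 514 and 523 CPM and the treated ones 549, 558 and 537 CPM. The groups overlapped without Cre and were narrowly apart in Cre-labelled slices. Its log2 differences were 0.07 (95% interval -0.07 to 0.20, limma adjusted p = 0.518) and 0.09 (95% interval -0.04 to 0.23, limma adjusted p = 0.412). Both intervals exclude a rise of the size seen for Slc2a1.

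Ldha (chromosome 7, 46841475 to 46855627, plus strand), the subunit of lactate dehydrogenase that favours making lactate, gave 616, 612 and 572 CPM in the vehicle libraries without Cre and 631, 523 and 612 CPM in the treated ones. The libraries labelled Cre gave 590.1, 579 and 615 CPM under vehicle and 628, 701 and 634 CPM under treatment. The groups overlapped without Cre and were apart in Cre-labelled slices. The log2 differences were -0.03 (95% interval -0.20 to 0.13, limma adjusted p = 0.817), a sign that turned positive with median-ratio scaling, edgeR and DESeq2, and 0.14 (95% interval -0.03 to 0.30, limma adjusted p = 0.287).

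Slc16a3 (chromosome 11, 120948480 to 120960868, plus strand) encodes MCT4, which exports lactate and is known from astrocytes in brain. It had the lowest CPM of the 10 members, at 26.6, 32.3 and 31.0 in vehicle and 28.2, 20.6 and 32.0 in treated slices without Cre. Under the Cre label the readings were 21.8, 18.5 and 23.8 CPM (vehicle) and 20.5, 28.6 and 24.6 CPM (treated). The groups overlapped in both genotypes. The log2 differences were -0.16 (95% interval -0.51 to 0.18, limma adjusted p = 0.538), which turned to 0.01 without flox treated replicate 2, and 0.18 (95% interval -0.16 to 0.53, limma adjusted p = 0.532).

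Vegfa (chromosome 17, 46016993 to 46032369, minus strand), the growth factor that drives vessel growth and is a classical hypoxia target, did not pass in either genotype. Its vehicle libraries without Cre held 68.6, 72.7 and 72.6 CPM and the treated ones 113, 71.2 and 81.6 CPM. With Cre, the vehicle libraries held 82.2, 77.6 and 82.1 CPM and the treated ones 173, 93.0 and 110.3 CPM. Vehicle libraries were tight and treated libraries were spread, with replicate 1 the highest in both genotypes. The groups overlapped without Cre and were apart in Cre-labelled slices. The log2 difference was 0.28 without Cre (SE 0.20, 95% interval -0.14 to 0.71, limma adjusted p = 0.386) and 0.58 in Cre-labelled slices (SE 0.20, 95% interval 0.16 to 1.01, limma adjusted p = 0.0705).

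The result for Vegfa in Cre-labelled slices was sensitive to the method. It passed with median-ratio scaling (limma adjusted p = 0.0362), with the replicate number as a block over both genotypes (limma adjusted p = 0.0337), in edgeR (adjusted p = 0.0283) and in DESeq2 (adjusted p = 0.00236). It also passed in limma without flox treated replicate 1 (adjusted p = 0.0376) and without Cre treated replicate 2 (adjusted p = 0.0172), and it did not pass in the other 15 of 21 alternatives. Leaving out single libraries moved the log2 difference from 0.33 to 0.77. Without Cre it did not pass in any of 21 alternatives, with an adjusted p of at least 0.156.

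**Figure D2:**
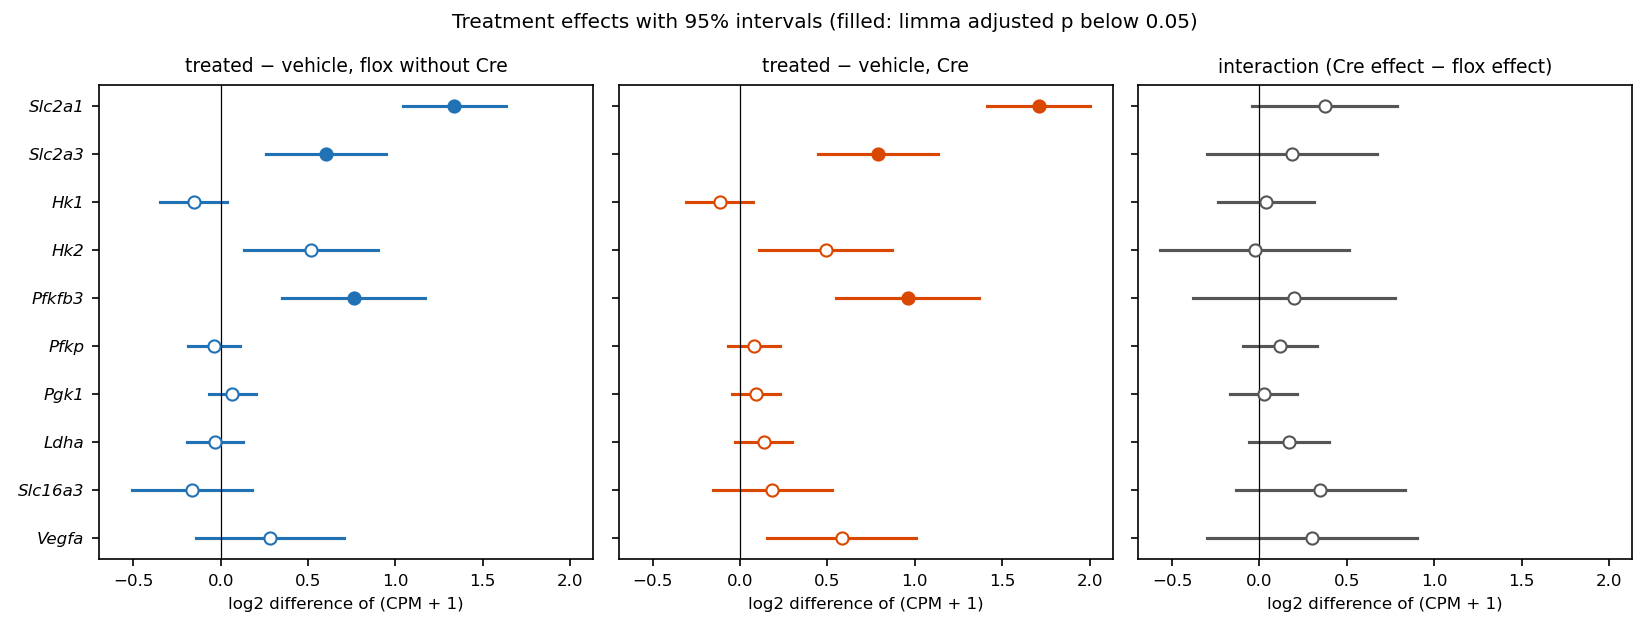
Log2 difference of (CPM + 1) between treated and vehicle libraries with 95% intervals for each of the 10 genes, without Cre (left) and in Cre-labelled slices (middle), and the interaction, the effect in Cre-labelled slices minus that without Cre (right); filled points passed limma at an adjusted p below 0.05. Slc2a1, Slc2a3 and Pfkfb3 are filled in both genotypes, and no interaction is filled.

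By the separation of libraries, 4 of 10 members lay fully higher after treatment without Cre (Slc2a1, Slc2a3, Hk2, Pfkfb3), where 9.18% of all tested genes did, and 1 lay fully lower (Hk1), where 23.8% did. In Cre-labelled slices 6 lay fully higher (Slc2a1, Slc2a3, Pfkfb3, Pgk1, Ldha, Vegfa), where 9.28% of all tested genes did, and 0 fully lower, where 20.1% did. Of all tested genes limma called 423 higher and 1219 lower without Cre and 495 higher and 1340 lower in Cre-labelled slices. The share of higher calls was 25.8% and 27.0% as deposited, 47.7% and 38.7% with median-ratio scaling, 41.5% and 41.7% in edgeR and 51.5% and 42.8% in DESeq2. The 3 members that passed in limma were higher under each of these.

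Levels can be compared between genes only per length, here CPM per kilobase of the longest protein-coding transcript of the GENCODE basic set, a measure settled after the lengths had been seen. In vehicle slices without Cre Ldha was highest at 331 ± 13.4, followed by Pgk1 at 275 ± 2.18, Hk1 at 170 ± 9.61 and Pfkp at 78.9 ± 2.98 CPM per kilobase (SD, n = 3 each). Slc2a3 at 40.1 ± 2.79 and Slc2a1 at 35.6 ± 6.01 CPM per kilobase were within each other's spread. Vegfa followed at 20.7 ± 0.687, then Pfkfb3 at 11.5 ± 0.952 and Hk2 at 11.05 ± 1.89, again within each other's spread, and Slc16a3 at 6.91 ± 0.69 CPM per kilobase. After treatment without Cre Slc2a1 had a mean of 90.5 ± 16.8 and Slc2a3 one of 62.0 ± 14.5 CPM per kilobase (SD, n = 3 each), so their order of means was exchanged while their spreads still overlapped. The members that passed thus came from the middle and lower part of this order, and the 4 most abundant members per length did not pass.

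The other genes of the same pathways were called for treatment in small numbers. The 9 lists with 110 genes in the table were set beside the members, and 100 of these genes were tested. Without Cre 2 were higher and 4 lower, where 3.24% of all tested genes were higher and 9.34% lower. In Cre-labelled slices 3 were higher and 2 lower, where 3.79% were higher and 10.3% lower. The medians of the 100 were -0.05 and 0.01 on the log2 scale. None of 8 other glucose carriers, 15 other glycolytic enzymes, 2 other genes that control the activator of phosphofructokinase and 6 other genes of lactate and monocarboxylate transport passed in either direction in either genotype.

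Genes next to glycolysis gave single calls, where 12.6% of all tested genes were called without Cre and 14.1% in Cre-labelled slices. Pdp2, a phosphatase that activates pyruvate dehydrogenase, was the one call among 14 genes of pyruvate entry into mitochondria: it fell from 24.2 ± 1.28 to 17.3 ± 1.499 CPM without Cre (SD, n = 3 each; log2 difference -0.46, limma adjusted p = 0.00344) and from 23.3 ± 1.44 to 16.8 ± 1.63 CPM in Cre-labelled slices (log2 difference -0.46, limma adjusted p = 0.00317). Ppp1r3c, which targets a phosphatase to glycogen, was the one call among 16 glycogen genes: it rose from 85.9 ± 7.90 to 119.7 ± 13.1 CPM without Cre (SD, n = 3 each; log2 difference 0.47, limma adjusted p = 0.00382) and from 88.5 ± 5.87 to 122 ± 5.94 CPM in Cre-labelled slices (log2 difference 0.46, limma adjusted p = 0.00429). Both held in all 21 alternatives in both genotypes. Of 8 genes of the pentose phosphate pathway 1 passed without Cre, Rpia at -0.38, a call that ended without any 1 of 10 libraries (limma adjusted p from 0.0544 to 0.129), all except Cre treated replicates 1 and 2.

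Among 22 genes of the hypoxia pathway and its targets 1 was higher and 1 lower without Cre, and 2 were higher and 1 lower in Cre-labelled slices, with list medians of 0.04 and 0.20 on the log2 scale. Of all tested genes 3.24% were higher and 9.34% lower without Cre, and 3.79% and 10.3% in Cre-labelled slices, with medians of -0.06 and -0.03. With the directions pooled 12.6% and 14.1% were called, and the pooled counts of this list are near that background. At an unadjusted limma p below 0.05 there were 5 and 10 of the 22, against 3456 and 3358 of the 13048 tested genes. P4ha1, a collagen prolyl hydroxylase, was higher in both. Its vehicle libraries without Cre held 61.5, 65.1 and 69.2 CPM and the treated ones 95.6, 87.7 and 92.6 CPM (log2 difference 0.49, limma adjusted p = 0.014), and the call ended without flox vehicle replicate 1 (limma adjusted p = 0.0654). With Cre the readings were 68.2, 64.6 and 70.1 CPM (vehicle) and 142, 93.9 and 108 CPM (treated; log2 difference 0.73, limma adjusted p = 0.000928), which held in all 21 alternatives.

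The other calls of that list were close to the threshold. Hif3a, an inducible member of the hypoxia-inducible factors, differed by 0.63 in Cre-labelled slices (limma adjusted p = 0.0212), at 1.95, 2.03 and 2.37 CPM in vehicle and 4.79, 2.59 and 4.35 CPM after treatment. Its call ended without Cre vehicle replicate 1 or 2 or Cre treated replicate 1 or 3 (limma adjusted p from 0.0624 to 0.0901). Egln1, a prolyl hydroxylase that marks the factors for decay, differed by -0.20 without Cre (limma adjusted p = 0.0467), and Vhl, which recognises that mark, by -0.21 in Cre-labelled slices (limma adjusted p = 0.0486). The Egln1 call passed in 6 and the Vhl call in 8 of 21 alternatives, and each ended on leaving out any 1 of 9 libraries (limma adjusted p from 0.0597 to 0.174 and from 0.0527 to 0.187). For Egln1 these were all except flox treated replicate 3 and Cre treated replicates 1 and 2, and for Vhl all except flox treated replicate 1 and Cre vehicle replicate 3 and Cre treated replicate 1.

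Of 9 tested genes of the VEGF family and its receptors 1 passed, Kdr, the main signalling receptor for VEGF on endothelium, which fell from 4.84 ± 0.645 to 3.16 ± 0.578 CPM without Cre (SD, n = 3 each; log2 difference -0.49, limma adjusted p = 0.0167). That call ended without flox vehicle replicate 3 (limma adjusted p = 0.0784) or flox treated replicate 2 (limma adjusted p = 0.0637). The summed endothelial markers given above overlapped between those groups. There 0 of 9 passed, where 3.24% of all tested genes were higher and 9.34% lower. Their log2 differences ran from -0.49 to 0.14 with a median of -0.30. At an unadjusted limma p below 0.05 there were 5 of the 9, against 3456 of the 13048 tested genes. The part of endothelial cells in the Kdr difference was not tested.

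**Figure D3:**
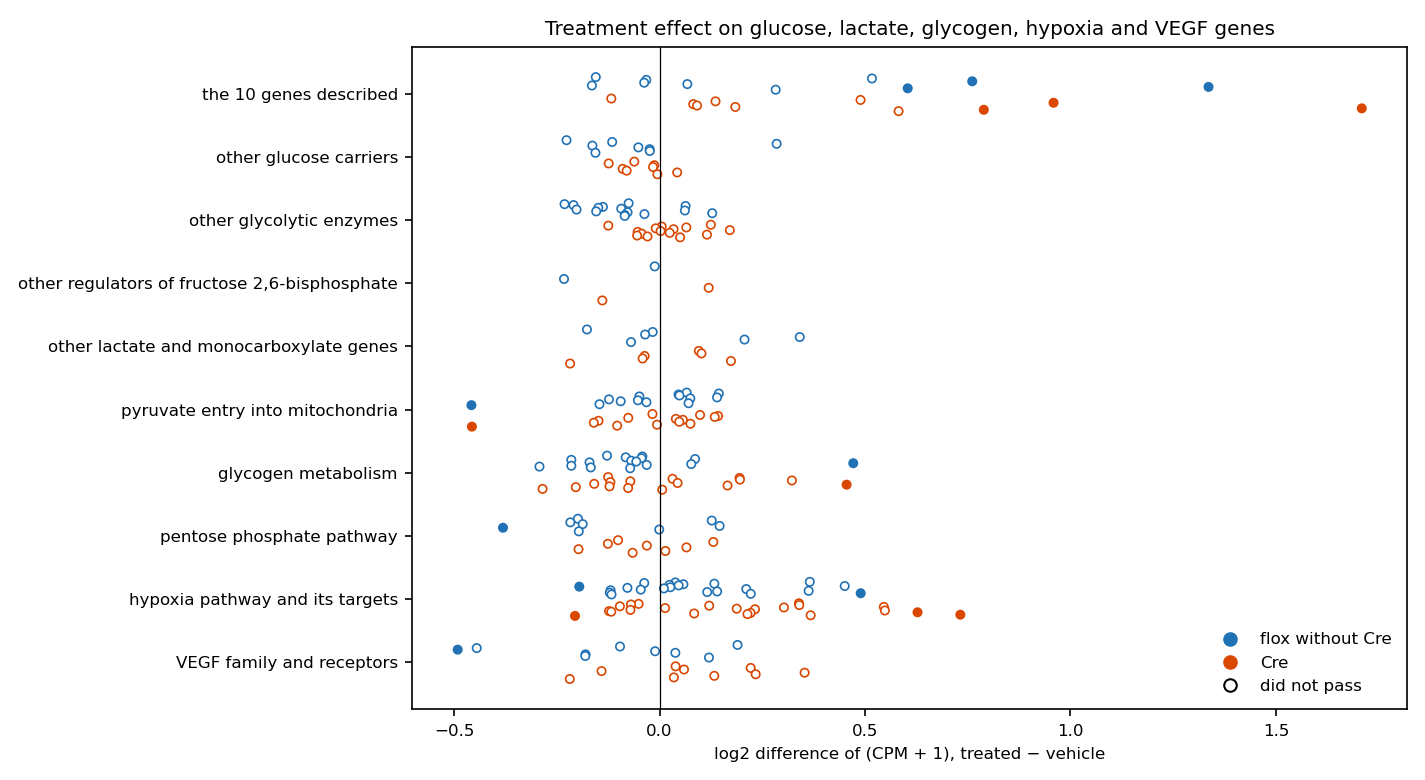
Log2 difference of (CPM + 1) between treated and vehicle libraries (horizontal axis) for the 10 genes described and for 9 lists of related genes, 1 point per tested gene and genotype; filled points passed limma at an adjusted p below 0.05. Slc2a1 stands farthest to the right in both genotypes at 1.34 and 1.71, and open points prevail in all 9 lists.

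Between genotypes no member passed. In vehicle slices 0 of 10 members differed, where 19.3% of all tested genes did (9.18% higher and 10.1% lower with Cre), and in treated slices 0 of 10, where 13.5% did (7.50% higher and 5.95% lower). By separation of libraries 3 members lay fully higher with Cre in vehicle (Slc2a3, Pfkfb3, Vegfa), where 27.8% of all tested genes did, and 1 fully lower (Slc16a3), where 23.4% did. In treated slices 0 lay fully higher, where 13.5% of all genes did, and 0 fully lower, where 12% did. At an unadjusted limma p below 0.05 there were 2 members in each comparison, against 4562 and 3677 of the 13048 tested genes, and DESeq2 called 1 member in each, against 3436 and 2503 genes. Slc16a3 came nearest in vehicle, with a mean of 29.9 ± 2.99 CPM without Cre and 21.4 ± 2.68 CPM in Cre-labelled slices (SD, n = 3 each), groups that did not overlap. Its log2 difference was -0.47 (SE 0.16, 95% interval -0.81 to -0.13, limma adjusted p = 0.0546). It passed in DESeq2 (adjusted p = 0.0275) and, in limma, on leaving out flox treated replicate 2 or 3 or Cre treated replicate 1 or 2 (adjusted p from 0.0281 to 0.0394).

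Slc2a1 in vehicle slices differed by -0.30 on the log2 scale between Cre-labelled slices and slices without (95% interval -0.59 to -0.00357, limma adjusted p = 0.138), with overlapping libraries. In treated slices Vegfa had a mean of 88.6 ± 21.8 CPM without Cre and 126 ± 42.3 CPM in Cre-labelled slices (SD, n = 3 each; log2 difference 0.47, 95% interval 0.05 to 0.90, limma adjusted p = 0.135), and it passed in DESeq2 (adjusted p = 0.0475) and in limma without flox treated replicate 1 (adjusted p = 0.0343) or Cre treated replicate 2 (adjusted p = 0.0292). Pfkp differed by 0.17 (limma adjusted p = 0.128) and passed without flox treated replicate 1 (limma adjusted p = 0.0289). Slc2a3 differed by 0.33 (limma adjusted p = 0.192) and passed without flox treated replicate 1 (limma adjusted p = 0.024) or Cre treated replicate 2 (limma adjusted p = 0.048). These intervals leave room for differences that 3 libraries a group could not show.

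The interaction, the test of whether the treatment effect itself differed between genotypes, passed for 0 of 10 members, where 0.0230% of all tested genes passed. None had an unadjusted limma p below 0.05, where 568 of the 13048 tested genes had one, and neither edgeR nor DESeq2 called a member. For Slc2a1 the effect was larger by 0.37 in Cre-labelled slices (SE 0.19, 95% interval -0.04 to 0.79, limma adjusted p = 0.988). For Slc2a3 the interaction was 0.19 (95% interval -0.30 to 0.67), for Pfkfb3 0.20 (95% interval -0.38 to 0.77), for Hk2 -0.03 (95% interval -0.57 to 0.51) and for Vegfa 0.30 (95% interval -0.30 to 0.90). The different counts of separated libraries in the 2 genotypes are therefore not shown to be a difference between them.

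Single genes of the pathway lists differed between genotypes, again with directions that follow the labels. Of the 100 tested genes 4 were higher and 15 lower in vehicle Cre-labelled slices, where 9.18% of all tested genes were higher and 10.1% lower. Their median log2 difference there was -0.09, against 0.005 over all tested genes. In treated Cre-labelled slices 6 were higher and 4 lower, where 7.50% of all tested genes were higher and 5.95% lower. The lower calls in vehicle were thus above their background. With the directions pooled, where 19.3% and 13.5% of all tested genes were called, the lists did not exceed the background in either state. Pygm, the muscle-type glycogen phosphorylase that astrocytes also use, was lower in both: it stood at 39.9, 37.6 and 35.7 CPM in vehicle slices without Cre and at 15.9, 14.6 and 13.4 CPM in those labelled Cre (log2 difference -1.31, limma adjusted p = 5.5e-05). After treatment it stood at 27.0, 38.5 and 36.0 CPM without Cre and at 10.8, 14.2 and 10.7 CPM in Cre-labelled slices (log2 difference -1.43, limma adjusted p = 2.56e-05).

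Ldhb, the lactate dehydrogenase subunit that favours use of lactate, was lower by a similar amount in both, at -0.40 in vehicle (limma adjusted p = 0.00569) and -0.40 after treatment (limma adjusted p = 0.00636). Hkdc1, a hexokinase relative, was higher at 0.67 and 0.55 (limma adjusted p = 0.00279 and 0.00898), and Pdp1, a second pyruvate dehydrogenase phosphatase, at 0.39 and 0.43 (limma adjusted p = 0.00682 and 0.00414). Emb, a partner protein of monocarboxylate carriers, was lower at -0.53 and -0.41 (limma adjusted p = 0.00173 and 0.00839). These genes and Pygm held in all 20 alternatives in both comparisons. In the VEGF family Figf, which encodes the ligand VEGF-D, was higher at 1.14 in vehicle (limma adjusted p = 0.00335) and 0.99 after treatment (limma adjusted p = 0.00817), from low levels of 0.747 ± 0.0711 and 1.09 ± 0.812 CPM without Cre to 2.86 ± 0.516 and 2.97 ± 0.521 CPM in Cre-labelled slices (SD, n = 3 each), and it held in all 19 alternatives that tested it. Vegfb was lower in vehicle at -0.46 (limma adjusted p = 0.00586) and Nrp1, a co-receptor, was higher after treatment at 0.56 (limma adjusted p = 0.00555), and both held in all 20 alternatives. Of 10 astrocyte markers 2 were lower in vehicle (Aldh1l1 and Gfap) and 2 after treatment (Aldh1l1 and Sox9), and 0 were higher. Their log2 differences ran from -0.53 to 0.52 with a median of 0.02 in vehicle, and from -0.54 to 0.24 with a median of -0.07 after treatment. In vehicle 2 of 9 endothelial markers (Cdh5 and Tie1) and 3 of 8 microglial markers were lower and 0 higher. The medians were -0.37 and -0.33. Of 8 excitatory markers 4 were higher and 0 lower (median 0.38), and of 8 inhibitory markers 2 were higher and 0 lower (median 0.17). Of all tested genes 9.18% were higher and 10.1% lower there. Of 8 mural and fibroblast and 7 oligodendrocyte markers 1 each was lower in vehicle. Of 3 choroid plexus markers 1 was higher and 1 lower. After treatment the endothelial, microglial, excitatory and inhibitory medians were -0.01, -0.17, 0.17 and 0.16. Of 8 excitatory markers 3 were higher there and 0 lower, and of 8 inhibitory markers 1 was higher (Sst) and 1 lower (Pvalb). Of 9 endothelial markers 1 was higher (Mfsd2a), of 3 choroid plexus markers 1 was lower (Aqp1), and 0 microglial markers passed. Of all tested genes 7.50% were higher and 5.95% lower in treated slices. The part of cell types in the genotype calls, such as that of the astrocyte-expressed Pygm, was not tested.

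The genes nearest in profile were ranked by the root mean square difference of log2(CPM + 1), each gene centred on its own mean over the 12 libraries. For Slc2a1, whose own root mean square deviation was 0.785, they were Mafk at 0.157, Dusp14 at 0.177, Midn at 0.178, Arid5b at 0.184 and Stk40 at 0.195. Mafk, a small Maf transcription factor, went from 8.72 ± 0.454 to 25.3 ± 2.28 CPM without Cre and from 8.53 ± 0.297 to 28.2 ± 2.39 CPM in Cre-labelled slices (SD, n = 3 each). Dusp14 encodes a dual-specificity phosphatase, and Arid5b a DNA-binding protein. Among the other members Pfkfb3 was nearest to Slc2a1, at place 113 of the 13048 tested genes, followed by Slc2a3 at place 152.

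For Vegfa, with a root mean square deviation of 0.366, the nearest were Slc22a21 at 0.0863, Abi3bp at 0.0987, Tmem39a at 0.0989, Mbnl2 at 0.11 and Ippk at 0.112. None of these 5 passed for treatment in either genotype. Mbnl2, a splicing regulator, went from 105 ± 3.14 to 138 ± 15.2 CPM without Cre and from 125 ± 8.00 to 181 ± 57.2 CPM in Cre-labelled slices (SD, n = 3 each), with the wide spread after treatment that Vegfa also had. Among the members Slc2a3 was nearest to Vegfa, at place 65. Slc2a1 was at place 12662, at a distance of 0.637, and by the same distance Vegfa was at place 391 from Slc2a1. The distance also reflects the size of a change. A gene that rose more than Vegfa can thus rank far from it although the directions match. The 12 libraries share their treatment and genotype, so these distances are a description.

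Which library was the highest of its group was counted over the members. Treated replicate 1 was the highest of its group for 7 of 10 members without Cre, where it was the highest for 49.8% of all tested genes, and for 6 of 10 members in Cre-labelled slices, where it was the highest for 52.8%. Of the 22 hypoxia genes it was the highest for 18 and for 15. Cre vehicle replicate 3 was the highest of its group for 9 of 10 members, where it was the highest for 23.3% of all tested genes. Slc2a1 was an exception without Cre, where replicate 3 was the highest. The summed level of 4 Y-linked genes was 3.89 and 0.522 CPM in vehicle and treated replicate 2 without Cre and 0.596 and 0.395 CPM in vehicle and treated replicate 1 labelled Cre, and between 90.4 and 119 CPM in the other libraries. The libraries with replicate 1 thus differ in that level between the genotypes, and its part in the spread of the members was not tested.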

How the data were processed

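Polyadenylated RNA of 12 libraries was sequenced as paired reads of 150 bp. Per the submitters' processing notes, FastQC, Trimmomatic, STAR, DESeq2 and mm10 were used; their versions, the counting tool, the annotation and strandedness were not given in the sources used here. The deposited values are CPM made by the authors, and each column sums to 1000000, so each value is a share of its library. The part of strongly induced genes in the levels of the others was not tested. Columns named WT and KO were taken as slices without and with Cre. All values were whole multiples of 1 read within 0.001 read, which gave total reads. At 0 counts a level of up to 0.0214 CPM (deepest library) or 0.0365 CPM (shallowest) remains possible (3 reads, counting error only).

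The main test was limma 3.58.1 (R 4.3.3) on log2(CPM + 1), which understates changes of low genes, with a means model over 4 groups, trend and robust moderation, two-sided, and Benjamini-Hochberg adjustment over the 13048 genes that averaged 1 CPM or more (threshold 0.05). Alternatives were pseudocounts of 0.1 and 5, no filter, a filter of 5 CPM, median-ratio scaling, replicate blocks, edgeR 4.0.16 (quasi-likelihood, TMM) and DESeq2 1.42.0 on recovered reads, and leaving out each library. The script was tested on simulated data. The members and lists were chosen with earlier results of these data known. Named genes were all members, Mef2c, Fos, up to 4 called genes of a list with the smallest p, and the 5 profiles nearest to Slc2a1 and Vegfa; of genotype calls in the lists only some are named. Gene positions are from GENCODE M21 (GRCm38, the same assembly as mm10) and promoters from RefSeq (GRCm38.p6), with 9 of 10 members matched. A search for the shorter cAMP half-site was also run and is not described.

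The groups share replicate numbers whose meaning the labels leave out. Vehicle and treated libraries of the same number had deviation correlations of 0.17, 0.14 and 0.48 with Cre (each over 0.1, which was read as pairing) and of 0.06, 0.41 and 0.07 without Cre. Within each genotype the low Y-linked levels given above also fell on the same number in vehicle and treated libraries. The main test did not use this pairing, which entered only through the replicate blocks among the alternatives.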

Additional observations from a re-analysis of the deposited data

How the results depend on the processing

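Over 21 alternatives the treatment calls of Slc2a1 held in both genotypes, and those of Slc2a3 and Pfkfb3 held in Cre-labelled slices. A replicate block within genotype changed no member's treatment call in Cre-labelled slices, ended the Slc2a3 call without Cre (limma adjusted p = 0.0509), and took the 3 interaction calls over all genes to 0. The count of members called for treatment in Cre-labelled slices was 3 in limma and 5 in both edgeR and DESeq2, all higher. Over all 13048 tested genes the higher calls there also grew, from 495 in limma to 755 in edgeR and 1020 in DESeq2. Between genotypes DESeq2 called 1 member in vehicle and 1 in treated slices, against 3436 and 2503 of all tested genes. DESeq2 called 42 interactions over all genes.

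Leaving out single libraries gave 1 to 4 members called for treatment without Cre and 3 to 5 in Cre-labelled slices, 0 to 1 between genotypes in vehicle and 0 to 3 after treatment. Over all genes the counts ran from 1046 to 2227 and from 1270 to 2070 for treatment, from 1173 to 3248 and from 1151 to 2687 for genotype, and from 0 to 6 for the interaction. The lowest count of members without Cre came on dropping replicate 1 of either flox group. The causes were not tested.

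Every sign that turned was of a difference that did not pass in the comparison concerned. For treatment without Cre, Pfkp became 0.0277 with median-ratio scaling, 0.0121 in edgeR and 0.0288 in DESeq2, and Ldha 0.033, 0.0192 and 0.0365. Hk1 in vehicle between genotypes became 3.21e-05 with median-ratio scaling and 0.000526 in DESeq2, and the Pgk1 interaction -0.00254 in DESeq2. On leaving out single libraries the log2 differences that turned ranged, for treatment without Cre, from -0.0846 to 0.0507 for Ldha and from -0.296 to 0.00915 for Slc16a3. Between genotypes in vehicle they ranged from -0.0458 to 0.0356 for Hk1, from -0.043 to 0.196 for Hk2 and from -0.0468 to 0.00639 for Ldha. After treatment they ranged from -0.0652 to 0.206 for Slc2a1, -0.0723 to 0.137 for Hk1, -0.0874 to 0.283 for Hk2, -0.00884 to 0.119 for Pgk1 and -0.294 to 0.0112 for Slc16a3. For the interaction they ranged from -0.0706 to 0.139 for Hk1, -0.189 to 0.182 for Hk2, -0.0544 to 0.362 for Pfkfb3 and -0.0441 to 0.084 for Pgk1. With 3 libraries a group, differences within these ranges could not be resolved.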
